A study of Mus musculus with 22 samples.

Results

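The comparison concerns hematopoietic stem cells (HSCs) of middle-aged mice, sorted into a fraction that carries the leptin receptor on its surface (LEPR+) and a fraction that does not (LEPR-). Its members are the 14 middle-aged libraries among the 22 of the series, 7 LEPR+ and 7 LEPR-, and the 2 libraries of each mouse were paired by the replicate number in their titles. The mice were 12 to 15 months old and are called here by their labels, mice 5 to 11. Mice 8 and 9 were male and the others female. The other 8 libraries come from 4 young mice of 2 to 3 months, sorted in the same way. Marrow was flushed from femurs and tibiae, depleted of lineage-marked cells with magnetic beads and sorted as Lin-Sca1+Kit+CD150+CD48- cells, each library being 1 fraction of 1 mouse. Neither a treatment nor a genetic modification is named in the labels, and the strain is not given in the sources used here. Each library was made from poly(A) RNA with a low-input amplification kit and holds read counts per gene. Levels are given as CPM, the share of a library's gene counts that fall on the gene, brought to the usual common total and scaled between libraries by the trimmed mean of M values, and errors are SD over 7 mice unless an SE is named.

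HSCs sit at the top of blood formation, divide rarely and keep the capacity to rebuild all blood lineages. LEPR is a cytokine receptor for leptin, the hormone of fat tissue, and signals through JAK2 and STAT proteins. In marrow it is best known from the mesenchymal stroma, whose LEPR+ cells supply CXCL12 and stem cell factor to HSCs. Platelet factor 4 (Pf4) is a chemokine stored in platelet alpha-granules and made by megakaryocytes, and some HSCs with a bias toward the platelet lineage also express it. Genes of S phase copy DNA and are driven by E2F factors, while many genes of G2 and M phase carry a CHR element (cell cycle genes homology region) in their promoters. Transcripts of both groups are scarce in resting HSCs and abundant in dividing progenitors.

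The promoters of 3 genes are shown because they stand for the 3 patterns described below: Pf4, the gene with the smallest p; Krt18, the only gene whose groups did not overlap; and Ube2c, a G2/M gene. Each run is the 250 bases before the RefSeq transcription start, 5′ to 3′, taken from the GRCm38.p6 promoter table and placed by a single exact match on GRCm39. Pf4 lies at chr5:90920044-90920293, Krt18 at chr15:101936401-101936650 and Ube2c at chr2:164611599-164611848, all on the plus strand. GENCODE starts these genes further upstream, so the Pf4 run lies wholly inside its GENCODE span (chr5:90918479-90922110) and the ends of the Krt18 and Ube2c runs lie inside theirs. Capitals mark a motif.
Pf4: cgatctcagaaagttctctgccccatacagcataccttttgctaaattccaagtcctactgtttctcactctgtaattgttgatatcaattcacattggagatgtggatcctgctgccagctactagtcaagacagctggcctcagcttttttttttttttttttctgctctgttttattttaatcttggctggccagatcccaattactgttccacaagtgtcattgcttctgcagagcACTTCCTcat
Krt18: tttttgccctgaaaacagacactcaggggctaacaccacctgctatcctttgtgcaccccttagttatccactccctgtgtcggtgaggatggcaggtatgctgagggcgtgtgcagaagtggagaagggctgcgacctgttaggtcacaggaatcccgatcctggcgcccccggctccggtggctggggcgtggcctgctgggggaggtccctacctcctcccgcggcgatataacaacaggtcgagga
Ube2c: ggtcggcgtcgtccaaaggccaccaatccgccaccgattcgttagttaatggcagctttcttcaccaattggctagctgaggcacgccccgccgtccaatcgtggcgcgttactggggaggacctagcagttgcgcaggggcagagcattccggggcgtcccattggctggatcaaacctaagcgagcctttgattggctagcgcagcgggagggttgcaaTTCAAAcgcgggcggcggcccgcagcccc
The capitals in Pf4 are an ETS word (AGGAAGT, here on the opposite strand as ACTTCCT) that begins 10 bases before the start, and that word was chosen for the search after the sequence had been read. In Ube2c they are the CHR word TTTGAA, on the opposite strand as TTCAAA, beginning 29 bases before the start. Both strands were searched, and in Krt18 none of the words was found. The ETS word occurs in 7.69% of the 32851 promoters in the table and the CHR word in 15.99%. The CHR word is present in 12 of 30 promoters of the G2/M list (40%) and in 4 of 33 of the S-phase list (12.1%). Any of 4 E2F words (TTTCCCGC, TTTGGCGC, TTTCGCGC, TTTGCCGC) is present in 7 of 33 S-phase promoters (21.2%), 1 of 30 G2/M promoters (3.33%) and 1.86% of all promoters. Of the cell-cycle genes named below, Cenpa, also of the G2/M list, held no CHR word. The S-phase genes Rrm2, Rfc4 and Prim1 held no E2F word. A match is a description of letters and not of a bound site.

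The libraries held 10325587 to 61697039 gene counts (median 33400311 in LEPR+ and 36089722 in LEPR-), so 3 counts, the most that a count of 0 allows, correspond to 0.0486 to 0.291 CPM. In all, 14000 to 24523 genes were detected. Mouse 6 stood apart by its drop-out share, the percentage of the 8929 genes with a median of at least 10 CPM that were at 0. It was 6.45% in the LEPR+ library and 2.32% in the LEPR- library of mouse 6 and under 1% in the other 12. The 2 libraries of a mouse also agreed to very different degrees. Among 4419 genes of at least 50 CPM, the share that differed by more than 2-fold between both fractions was 24.5%, 30.7%, 9.96%, 6.72%, 8.96%, 0.656% and 0.0905% in mice 5 to 11. Mice 10 and 11 therefore gave nearly the same profile for both fractions, whereas mice 5 and 6 gave the widest spread. Values without those 2 mice are given for Pf4, Slamf1 and several lists. For most single genes they are not given, and some of those genes differed most in mice 5 and 6.

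**Figure D1:**
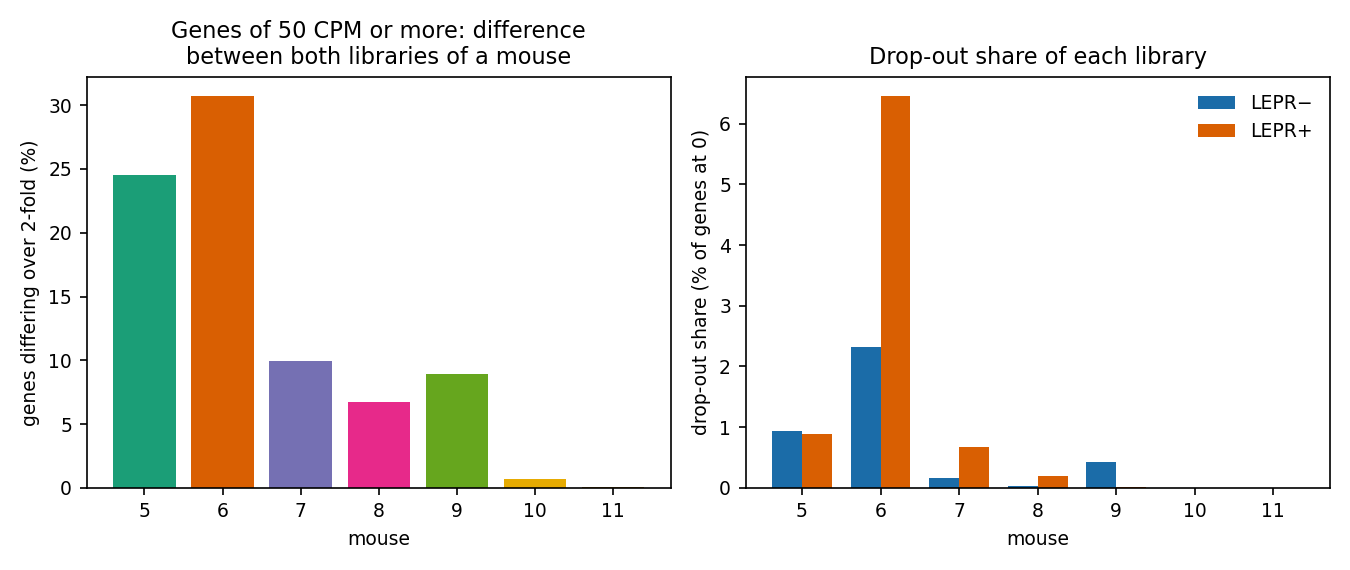
Left, the percentage of genes of at least 50 CPM that differed by more than 2-fold between the LEPR+ and LEPR- library of each mouse. Right, the drop-out share of each of the 14 libraries by mouse; mouse 6 is highest at left (30.7%) and at right (6.45% in its LEPR+ library).

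The genes of the sort were examined first. Lepr (ENSMUSG00000057722.18, chr4:101574601-101676237, plus strand, GRCm39) was too sparse to be tested. It had 363, 31 and 34 counts in the LEPR+ libraries of mice 8, 10 and 11 and 0 in the 4 others. In the LEPR- libraries it had 226 counts in mouse 7, 26 in mouse 11, 1 each in mice 5 and 10 and 0 in the other 3. In CPM the highest values were 10.4 in LEPR+ and 5.60 in LEPR-. The transcript was thus higher in LEPR+ in 3 mice, lower in 2 and equal at 0 in 2 (mean log2 difference 0.41, SD 2.38; exact two-sided sign-flip permutation test, p = 0.625, smallest possible 0.0156). The Lepr transcript therefore did not separate the fractions as labelled; the sort was made on surface protein, which was not measured here.

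The other gate genes were present in every library. Kit, the receptor for stem cell factor, ran from 422 to 1298 CPM (median 994) in LEPR+ and from 396 to 1083 CPM (median 822) in LEPR-. It was higher in LEPR+ in 6 of 7 mice, with overlapping groups (log2 fold change 0.27, SE 0.0978, unadjusted p = 0.0223). Ly6a, which encodes Sca-1, had medians of 137 and 116 CPM and was higher in 5 of 7 mice (log2 fold change 0.35, SE 0.224). Procr, the endothelial protein C receptor of long-term HSCs, had medians of 148 and 114 CPM and was higher in 6 of 7 (log2 fold change 0.27, SE 0.137). Slamf1, which encodes CD150, did not differ beyond its error (log2 fold change 0.07, SE 0.228), and its direction turned to -0.14 without mouse 5 and to -0.05 without mice 5 and 6. Cd48, which the gate excludes, was at 0 in 5 LEPR+ and 4 LEPR- libraries and reached 4.28 CPM in the LEPR- library of mouse 10.

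No gene passed the test between LEPR+ and LEPR- HSCs of middle-aged mice. Of 14641 genes tested with edgeR's quasi-likelihood test with the mouse as block, 0 (0%) had an adjusted p under 0.05 and 200 (1.37%) an unadjusted p under 0.05, 95 of them higher and 105 lower in LEPR+. Higher in LEPR+ in all 7 mice were 91 genes (0.622%), and lower in all 7 were 112 (0.765%). In 1 gene (0.00683%), Krt18, the groups did not overlap. By DESeq2 12 genes were called, 1 higher and 11 lower, and by limma-voom 0. Genes named below as higher or lower are therefore described by their values, and every one of them but Pf4 had an adjusted edgeR p of 1.

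How small a difference could have been seen depended on level. The median width of the 95% interval to either side of the log2 fold change was 2.89 for the 3913 genes under 5 CPM, 1.82 for 6309 genes of 5 to 50 CPM, 0.49 for 4175 genes of 50 to 500 CPM and 0.22 for 244 genes above. Among the 4419 genes of at least 50 CPM, 3433 (77.7%) had an interval that lay wholly within 2-fold. For the well-expressed genes a difference beyond 2-fold was thus mostly outside the interval, while for genes under 50 CPM the median interval reached well past 2-fold, so a difference of that size was mostly not detectable at this spread. Over the 4419 genes of at least 50 CPM, fraction accounted for a median of 2.07% of a gene's sum of squares and the mouse for 71.2%, against 7.69% and 46.2% of the degrees of freedom.

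**Figure D2:**
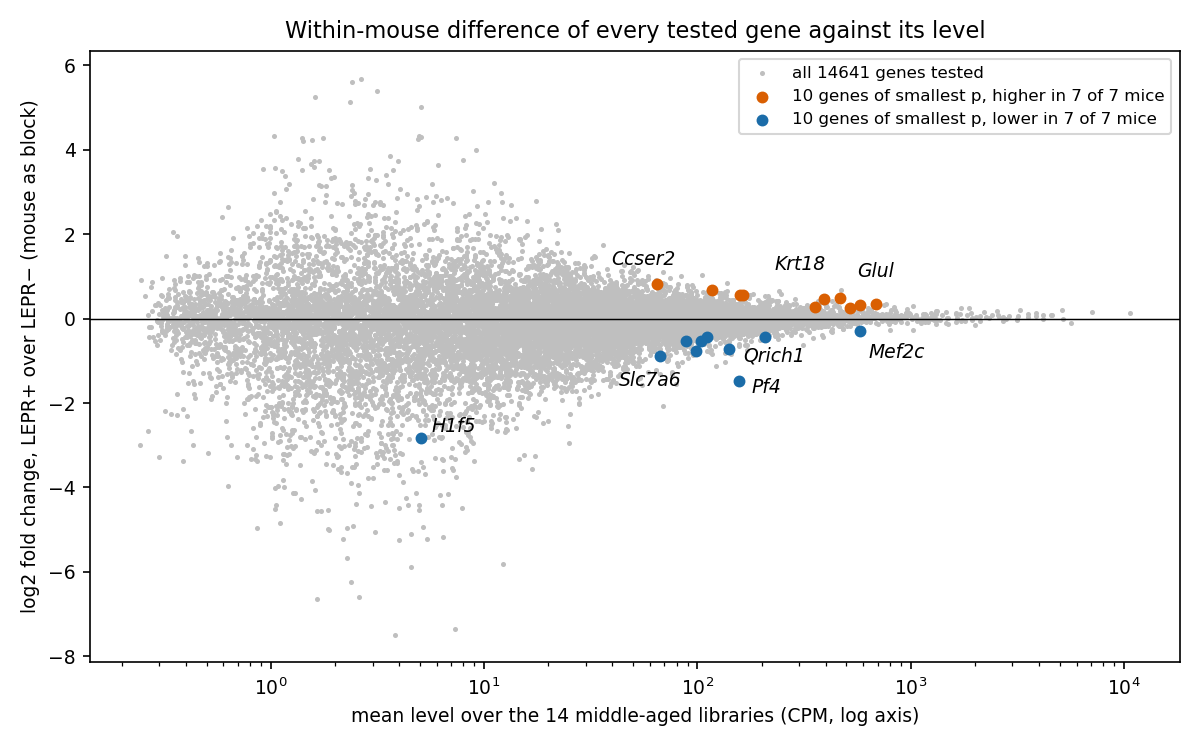
Log2 fold change, LEPR+ over LEPR-, of each of the 14641 tested genes against its mean level in CPM (log axis). The scatter narrows as the level rises, and Pf4 (log2 fold change -1.47) lies below the other genes of its level.

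Pf4 was the gene with the smallest p and was lower in LEPR+ HSCs of all 7 mice. Pf4 (ENSMUSG00000029373.8, chr5:90918479-90922110, plus strand) stood at 78.0, 140.4, 67.2, 40.1, 86.7, 77.7 and 63.9 CPM in the LEPR+ libraries of mice 5 to 11. In the LEPR- libraries of the same mice it stood at 409, 368, 164, 74.8, 259.8, 159 and 214 CPM. Within each mouse the LEPR+ value was lower by 1.86- to 5.22-fold, yet the groups overlapped, since the LEPR+ library of mouse 6 lay above the LEPR- library of mouse 8. The means were 79.1 ± 30.9 and 235 ± 119.6 CPM (log2 fold change -1.47, SE 0.185, 95% interval -1.89 to -1.05). The unadjusted edgeR p was 2.71e-05 and the adjusted p 0.397. With DESeq2 the adjusted p was 8.28e-09, and in an edgeR fit of all 22 libraries with the mouse as block it was 0.0396. Without mice 5 and 6 the log2 fold change was -1.31.

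Platelet genes as lists were displaced less than Pf4. Of 15 tested genes for alpha-granule cargo, 9 were lower, with a median log2 fold change of -0.25, which lay at 0.01 without mice 5 and 6 and between -0.09 and 0.00076 without mouse 5, 6 or 9 alone; the median over all tested genes was -0.04, with 45.6% of genes higher. Among platelet surface receptors and signalling genes 11 of 22 were higher (median 0.04). Itgb3, the beta-3 chain of the fibrinogen receptor, was higher in 7 of 7 mice (117 ± 76.6 against 79.6 ± 23.96 CPM, log2 fold change 0.39, unadjusted p = 0.0653), while its partner Itga2b had a log2 fold change of -0.48 (unadjusted p = 0.138). The thrombin receptor gene F2r had a log2 fold change of -0.40 and F2rl2, another receptor of that family, one of -1.62 with a wide error (SE 1.05, unadjusted p = 0.158). Among genes of megakaryocyte transcription and cytoskeleton 16 of 25 were lower (median -0.07). Nfe2, a transcription factor of platelet formation, averaged 1139 ± 383 and 903 ± 135 CPM and was higher in 5 of 7 mice (log2 fold change 0.29, unadjusted p = 0.033). Mef2c, a transcription factor of megakaryocyte and lymphoid development, was lower in 7 of 7 (log2 fold change -0.29, unadjusted p = 0.0191).

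Markers of megakaryocytes and platelets were summed beside Pf4, without Pf4 itself. The sum was 1199, 1387, 1531, 1205, 1249, 1654 and 1345 CPM in the LEPR+ libraries of mice 5 to 11. In the LEPR- libraries it was 1163, 1706.5, 1442, 1216, 1396, 1824 and 1417 CPM. It was thus lower in LEPR+ in 5 mice and higher in 2, mice 5 and 7, with ratios from 0.813 to 1.06. Of the 17 tested genes other than Pf4, 10 were lower, with a median log2 fold change of -0.17. The part of these other cells in the Pf4 difference was not tested. In bulk libraries, fewer cells of a type and less RNA per cell cannot be told apart.

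**Figure D3:**
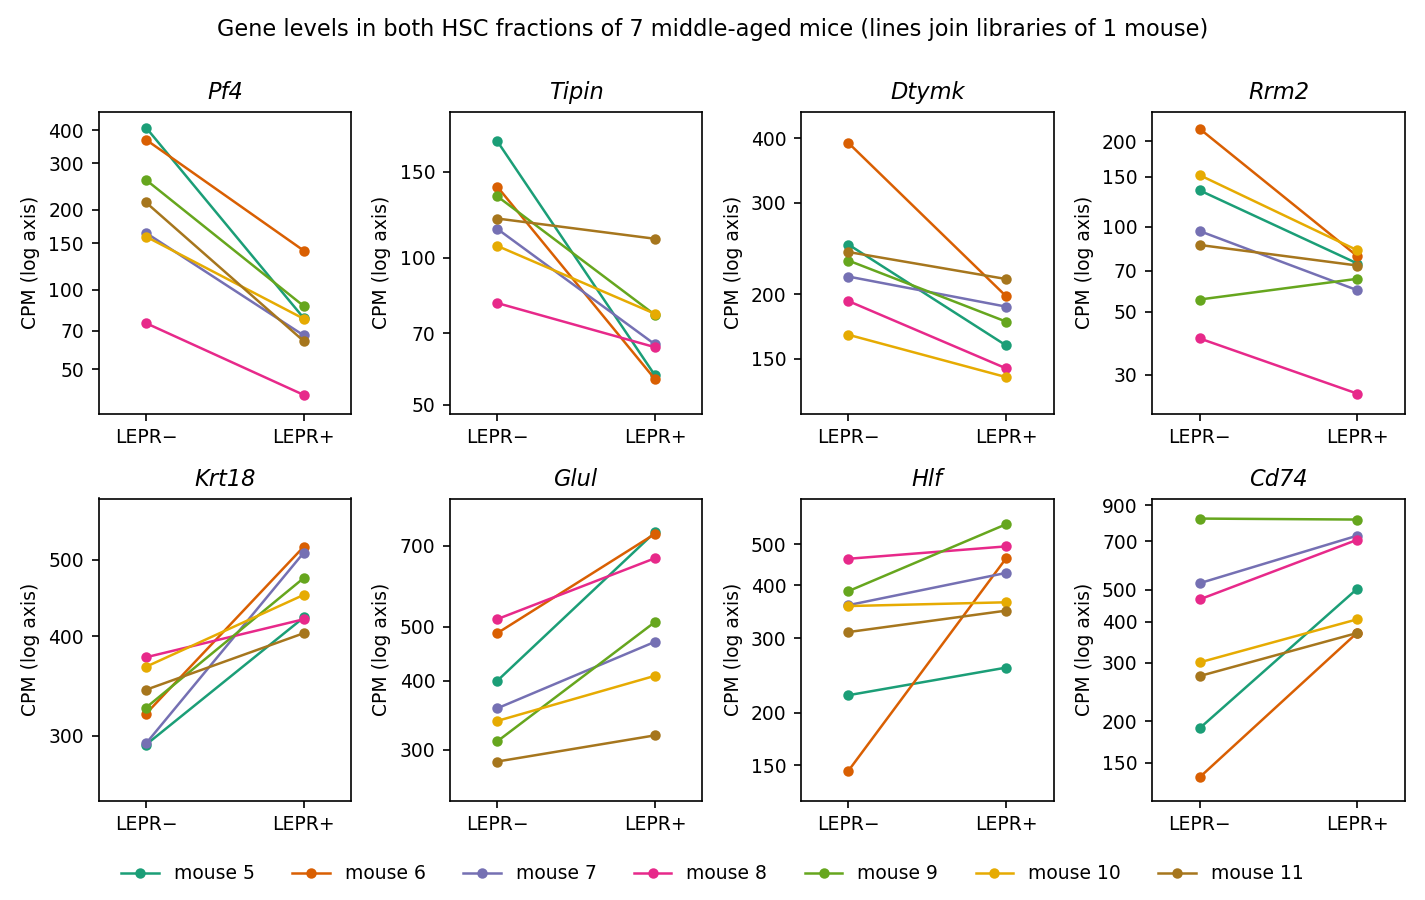
Level in CPM (log axis) of individual genes in the LEPR+ and LEPR- libraries, with a line joining both libraries of 1 mouse. Pf4 is lower in LEPR+ in all 7 mice, by 1.86- to 5.22-fold, and Krt18 is the gene whose 7 LEPR+ values (404 to 519 CPM) all lie above its 7 LEPR- values (292 to 377 CPM).

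The 10 genes with the smallest p among those higher in LEPR+ in 7 of 7 mice were of several functions. Glul, the glutamine synthetase (ENSMUSG00000026473.17, chr1:153775690-153785469, plus strand, overlapping Teddm2), ran from 319 to 741 CPM (median 510.3) in LEPR+ and from 286 to 516 CPM (median 356) in LEPR-. The groups overlapped (549.9 ± 166 against 385 ± 87.8 CPM, log2 fold change 0.48, SE 0.102, unadjusted p = 0.00114), and DESeq2 called it (adjusted p = 0.0408). Krt18, the intermediate filament keratin 18 (ENSMUSG00000023043.8, chr15:101936615-101940462, plus strand), lay between 404 and 519 CPM in LEPR+ (median 451) and between 292 and 377 CPM in LEPR- (median 325). Its means were 457 ± 45.4 and 331 ± 33.1 CPM (log2 fold change 0.47, SE 0.0991, unadjusted p = 0.00118), and the smallest and largest differences within a mouse were 1.12- and 1.74-fold. The other 8 had log2 fold changes of 0.25 to 0.82.

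Among these, Msn encodes moesin, which links the membrane to actin (646 ± 194 against 513 ± 147 CPM, log2 fold change 0.33, unadjusted p = 0.00743). Dnajb1 encodes an HSP40 co-chaperone (393 ± 129 against 316 ± 69.6 CPM, log2 fold change 0.28). Tgm2, transglutaminase 2, and Cand1, an exchange factor of cullin ligases, both had a log2 fold change of 0.57. Prtn3, proteinase 3 of neutrophil granules, had 781 ± 356 and 598 ± 203 CPM (log2 fold change 0.34). Hsd17b10, a mitochondrial dehydrogenase, had a log2 fold change of 0.25 and Ccser2 one of 0.82. In each of these the ranges of the fractions overlapped, and the unadjusted p lay between 0.00743 and 0.0122.

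Among the 10 genes with the smallest p that were lower in 7 of 7 mice, Pf4 came first and genes of DNA replication next. Tipin, a partner of the Timeless protein that protects replication forks (chr9:64188832-64215617, plus strand, overlapping Dis3l), ran from 56.4 to 109 CPM (median 66.4) in LEPR+ and from 80.8 to 173 CPM (median 120.4) in LEPR- (log2 fold change -0.77, SE 0.205, unadjusted p = 0.00473). Dtymk, the thymidylate kinase that supplies dTTP (chr1:93718799-93729710, minus strand), ran from 138 to 214 CPM (median 177) against 167 to 392 CPM (median 232), with a log2 fold change of -0.44, SE 0.12 and unadjusted p = 0.00529. Both genes had overlapping groups. H1f5, a linker histone gene, had a median of 0.747 against 7.56 CPM (log2 fold change -2.83, SE 1.01). Further genes had other functions. Slc7a6, an amino acid transporter, had 48.9 ± 20.6 and 85.1 ± 16.3 CPM (log2 fold change -0.89, SE 0.3). In mice 5 and 6 the log2 difference was -1.84 and -1.90 for Slc7a6 and -1.59 and -1.30 for Tipin. In the other mice it ran from -0.10 to -1.32 for Slc7a6 and from -0.14 to -0.80 for Tipin. Trmt1l, Zdhhc6 and Qrich1 had log2 fold changes of -0.53, -0.54 and -0.72.

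Cell-cycle genes were mostly lower in LEPR+ HSCs, although no member passed the test. Of 36 tested S-phase genes 33 were lower, with a median log2 fold change of -0.34, and of 36 G2/M genes 30 were lower, with a median of -0.89; over all tested genes the median was -0.04 and 45.6% were higher. Among S-phase genes, Rrm2, the regulatory subunit of ribonucleotide reductase, ran from 25.7 to 82.5 CPM (median 72.9) in LEPR+ and from 40.3 to 222 CPM (median 96.5) in LEPR-. It was lower in 6 of 7 mice with overlapping groups (log2 fold change -0.65, SE 0.213, unadjusted p = 0.0135). Rfc4, a subunit of the clamp loader, had 64.0 ± 23.2 and 86.1 ± 24.3 CPM (log2 fold change -0.44, unadjusted p = 0.0479), and Prim1, a DNA primase subunit, 62.6 ± 39.5 and 96.8 ± 40.8 CPM (log2 fold change -0.80, unadjusted p = 0.0771). Lower in 7 of 7 mice were 2 S-phase genes, Cdc6 and Ccne2, named after their values were seen, with log2 fold changes of -1.78 (SE 1.07) and -1.14 (SE 0.732).

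In the G2/M list, Cenpa, the centromeric histone variant, had 48.3 ± 22.3 and 77.2 ± 28.8 CPM (log2 fold change -0.70, unadjusted p = 0.0635). Ube2c, the E2 enzyme of the anaphase-promoting complex whose promoter carries the CHR word shown above, ran from 13.2 to 49.6 CPM (median 27.4) in LEPR+ and from 12.9 to 69.8 CPM (median 33.9) in LEPR-. Its log2 fold change was -0.55 (unadjusted p = 0.0764). Kif20a, a kinesin of cytokinesis, averaged 8.04 ± 8.99 and 17.4 ± 10.1 CPM (log2 fold change -2.46, SE 1.22). All 3 were lower in 6 of 7 mice with overlapping groups. Cdk1 and Bub1, again named after their values were seen, were the 2 G2/M genes lower in 7 of 7 (log2 fold changes -0.95, SE 0.683, and -1.64, SE 0.849). Of the G1 kinases, Cdk6 had a log2 fold change of -0.64 (lower in 6 of 7, unadjusted p = 0.0507) and Cdk4 one of -0.24 (lower in 5 of 7, unadjusted p = 0.0564).

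The size of the cell-cycle difference varied between mice. The summed level of the S-phase genes in LEPR+ was 0.938, 0.556, 0.871, 0.840, 0.954, 0.782 and 0.961 of that in LEPR- in mice 5 to 11. For the G2/M genes these ratios were 0.818, 0.312, 0.773, 0.905, 1.12, 0.592 and 0.818. The S-phase sum was thus lower in LEPR+ in all 7 mice and the G2/M sum in all but mouse 9. Mouse 6, whose LEPR+ library had the highest drop-out share, had the lowest ratio in both. Mouse 6 held 15146116 gene counts in LEPR+ and 44266251 in LEPR-. Mouse 9 held 61697039 in LEPR+ and 10325587 in LEPR-, the highest and lowest counts of the middle-aged libraries. Mice 5 and 10 also held more gene counts in LEPR+, with G2/M ratios of 0.818 and 0.592. The part of library depth in these ratios was not tested. Without mouse 6 the medians were -0.21 and -0.56, with 32 and 29 of 36 genes lower. Without mice 5 and 6 they were -0.23 and -0.48, with 28 of 36 lower in each list. With the drop-out share of each library added to the fit, they were -0.20 and -0.53.

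**Figure D4:**
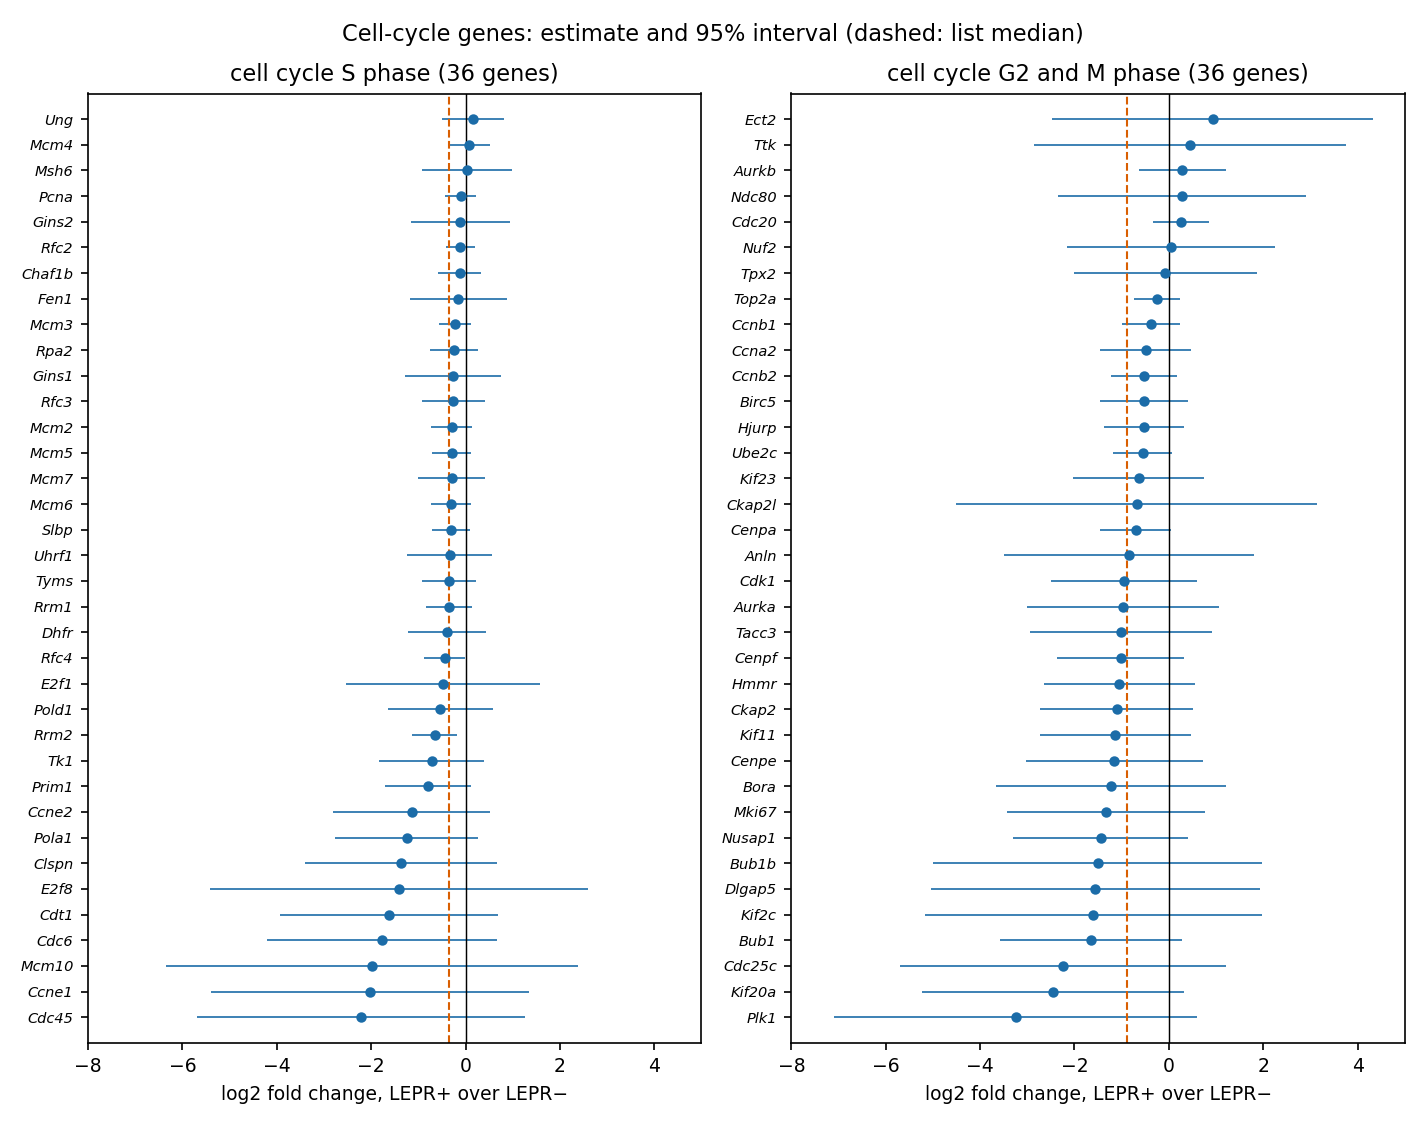
Log2 fold change, LEPR+ over LEPR-, with its 95% interval for each of the 36 S-phase and 36 G2/M genes tested; the dashed line is the list median. Most points lie left of 0 (33 and 30 genes), and most intervals include 0.

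Level was read beside these lists too, since G2/M genes lay mostly under 50 CPM, while S-phase genes were spread over all levels. Among genes of at least 100 CPM, 12 of 13 S-phase genes were lower (median -0.30), against 49.3% of all tested genes of that level. Of the G2/M genes of 20 to 50 CPM 15 of 17 were lower (median -0.95), against 55.8% of all, and of those of 5 to 20 CPM 10 of 13 (median -1.51), against 58.1%. Markers of dividing progenitors and of erythroid cells were read beside the cell-cycle genes. Of 13 progenitor markers 10 were lower (median -0.22), and their sum was lower in LEPR+ in 5 of 7 mice. Cd34, a marker of short-term HSCs and progenitors, had 166 ± 73.9 and 228 ± 64.0 CPM (log2 fold change -0.51, lower in 6 of 7 mice, unadjusted p = 0.07), and Plac8 had a log2 fold change of -0.79 (unadjusted p = 0.0755). Of 18 erythroid markers 16 were lower (median -0.77), among them Aqp1 (37.3 ± 32.7 and 101 ± 42.1 CPM, log2 fold change -2.08, unadjusted p = 0.0489) and Car1 (11.4 ± 9.39 and 34.7 ± 22.3 CPM, lower in 7 of 7). Sums over the 24 listed erythroid markers spanned 3159 to 5954 CPM in LEPR+ and 2998 to 6093 CPM in LEPR-, ranges that overlap almost wholly. Within mice the sum was higher in LEPR+ in 4 of 7, with ratios from 0.95 to 1.05. The median difference of the list was above 0 in 3 mice and below 0 in 4. The erythroid median was -0.43 without mouse 10, and the progenitor median -0.56 without mouse 7. The part of progenitors and erythroid cells in the cell-cycle difference was not tested.

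Genes of long-term HSC identity lay slightly higher in LEPR+. Of 43 tested, 31 were higher, with a median log2 fold change of 0.12, and 25 of 43 with a median of 0.05 without mice 5 and 6 (0.07 without mouse 5 alone). Their summed level was 1.29, 1.11, 1.06, 1.01, 1.02, 1.08 and 1.04 times that in LEPR- in mice 5 to 11, higher in all 7 but by less than 10% in 5 of them. Hlf, a transcription factor of HSC self-renewal, ran from 255 to 557 CPM (median 428) in LEPR+ and from 146 to 462 CPM (median 357) in LEPR-, higher in 7 of 7 mice (log2 fold change 0.41, SE 0.191, unadjusted p = 0.0601). The log2 difference of Hlf was 1.67 in mouse 6 and between 0.03 and 0.52 in the other mice. Tal1, a basic helix-loop-helix factor of HSCs named after its values were seen, was the other gene of the list higher in 7 of 7 (log2 fold change 0.48, SE 0.23). Txnip, which restrains glucose uptake, had 506 ± 193 and 411 ± 138 CPM (log2 fold change 0.28, unadjusted p = 0.0427). In the list of quiescence genes and inhibitors of cyclin-dependent kinases 18 of 34 were lower (median -0.05). That list also holds the kinase genes Cdk4 and Cdk6, which are not inhibitors.

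Genes reported to be raised in aged HSCs were higher in LEPR+ for 39 of 55 (median 0.17, and 0.07 without mice 5 and 6, 0.09 without mouse 5 and 0.26 without mouse 8). Their summed level was higher in 6 of 7 mice, with ratios from 0.991 to 1.47. Clu, the chaperone clusterin, had 275 ± 122 and 202 ± 72.9 CPM (log2 fold change 0.42, higher in 6 of 7, unadjusted p = 0.0348). Egr1, an immediate-early transcription factor, ran from 55.0 to 490.0 CPM (median 67.5) in LEPR+ and from 7.56 to 208 CPM (median 58.9) in LEPR- (log2 fold change 1.03, SE 0.361, higher in 6 of 7, unadjusted p = 0.0199). The log2 difference of Egr1 was 2.78 in mouse 5 and 1.96 in mouse 6, and lay between -0.03 and 1.24 in the other mice. Immediate-early genes as a list were not displaced, with 14 of 26 higher and a median of 0.01. Tgm2, Itgb3 and Fhl1 were the 3 genes of the aged list higher in 7 of 7 mice, Fhl1 with a log2 fold change of 0.43 (SE 0.198).

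Genes of leptin signalling were higher for 13 of 18 (median log2 fold change 0.22). The median was 0.15 without mouse 5, 0.12 without mouse 6, 0.12 without mouse 8 and 0.09, with 11 of 18 higher, without the mouse as block. Their summed level was 1.01 to 1.18 times that in LEPR- in the 7 mice. Ptpn11, which encodes the phosphatase SHP2 that binds LEPR, had 77.4 ± 19.5 and 54.8 ± 12.8 CPM (log2 fold change 0.49, higher in 6 of 7, unadjusted p = 0.0344). Stat5a, a transcription factor downstream of JAK2 that overlaps Stat3 in the annotation, had 107 ± 43.2 and 73.3 ± 32.2 CPM (log2 fold change 0.52, higher in 5 of 7, unadjusted p = 0.0374). Pik3r1, the regulatory subunit of PI3 kinase, had a log2 fold change of 0.32 and was higher in 4 of 7. Other cytokine receptor genes were higher for 15 of 25 (median 0.08). Neither of these 2 lists had a member that was higher, or lower, in all 7 mice.

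Metabolic and ribosomal lists were displaced by small amounts. Nuclear genes of oxidative phosphorylation were lower for 52 of 64, with a median of -0.07. The median of this list was below 0 in 6 of 7 mice and 0.36 in mouse 8. Cox5b, a subunit of cytochrome c oxidase, had a log2 fold change of -0.24 (unadjusted p = 0.0553), while Cox4i1, another subunit, was higher in 7 of 7 (log2 fold change 0.13, unadjusted p = 0.099). Genes of the cytosolic ribosome were higher for 62 of 79 (median 0.05, and 0.01 without mice 5 and 6), with Rpl3 at 0.18 (unadjusted p = 0.0471). The ribosomal genes moved together within a mouse. Their median was above 0 in 4 mice and below 0 in 3, from 0.35 in mouse 5 (75 of 79 higher) to -0.17 in mouse 11 (72 of 79 lower). Genes of glycolysis were higher for 14 of 22 (median 0.05). Pkm, pyruvate kinase, had 1054 ± 294 and 878 ± 172 CPM (log2 fold change 0.24, higher in 6 of 7, unadjusted p = 0.0235). Genes of fatty acid oxidation (13 of 23 higher, median 0.06) and of cholesterol synthesis (12 of 22 lower, median -0.02) lay near the median of all genes. Msmo1, a sterol oxidase, was higher in 7 of 7 mice by 0.26 on the log2 scale (unadjusted p = 0.0676).

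Stress and immune lists gave medians near 0. Interferon response genes were higher for 28 of 50 (median 0.03), with Cmpk2 at 0.58 (unadjusted p = 0.0625) and Oasl2 at 0.25 (unadjusted p = 0.0938). Genes induced by p53 were higher for 16 of 26 (median 0.11), a median that ran from -0.02 without mouse 5 to 0.26 without mouse 6. Among them Perp, a desmosomal protein, was higher in 7 of 7 mice (38.7 ± 30.4 and 26.0 ± 25.9 CPM, log2 fold change 0.76, unadjusted p = 0.0281), and Aen, a nuclease, in 6 of 7 (log2 fold change 0.57, unadjusted p = 0.0336). Heat shock and protein folding genes were split, 15 of 29 lower, with the disulfide isomerase gene Pdia3 higher in 7 of 7 (log2 fold change 0.14, unadjusted p = 0.0466) beside Dnajb1. Genes of NF-kB and inflammation were higher for 12 of 22 (median 0.08). Genes of TGF-beta and BMP signalling were lower for 19 of 24 (median -0.44), with Bmpr2 at -0.83 and Smad1 at -0.91 but Eng at 0.46. The median was -0.16 without mouse 6, and without mice 5 and 6 it was -0.15, with 14 of 25 lower. Adhesion and niche genes were lower for 17 of 28 (median -0.07), and Tek, the TIE2 receptor of quiescent HSCs, had a log2 fold change of -1.56 with an SE of 1.1. The log2 difference of Tek was -5.27 in mouse 5 and -5.99 in mouse 6, and lay between -1.25 and 0.05 in the other mice.

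Antigen presentation differed by gene. Cd74, the invariant chain of MHC class II, ran from 369.7 to 814 CPM (median 503) in LEPR+ and from 135 to 819.5 CPM (median 301) in LEPR-. It was higher in 6 of 7 mice with overlapping groups (log2 fold change 0.68, SE 0.183, 95% interval 0.27 to 1.10, unadjusted p = 0.00496). H2-Aa, an alpha chain of the class II dimer, had a log2 fold change of 0.19 (unadjusted p = 0.221), and of 11 markers of dendritic cells and MHC class II 6 were lower (median -0.01). MHC class I genes were higher for 10 of 17 (median 0.06). Nkg7, a gene of cytotoxic granules, had 38.1 ± 20.1 and 68.3 ± 38.4 CPM and was lower in 6 of 7 mice (log2 fold change -0.83, unadjusted p = 0.0107), while Klrb1c, which encodes the NK1.1 antigen, had a log2 fold change of -0.27.

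Since LEPR also marks marrow stroma, stromal genes were examined as well. Of 21 stromal markers, Pdgfra, Esm1 and Grem1 were at 0 in all 14 libraries. Adipoq did not pass 0.181 CPM and Cxcl12 did not pass 6.20 CPM in LEPR+ and 24.03 CPM in LEPR-. Other markers were detected. Pdgfrb averaged 13.4 ± 24.5 CPM in LEPR+ and 1.27 ± 1.38 CPM in LEPR-, and Gas6 23.2 ± 10.5 and 15.8 ± 13.6 CPM. Both were higher in LEPR+ in 4 of 7 mice. Col1a2 averaged 3.04 ± 3.75 and 8.75 ± 7.41 CPM and was lower in 6 of 7. Of the 8 stromal markers that could be tested 5 were lower in LEPR+ (median -0.20), and the sums over the list spanned 120 to 230 CPM in LEPR+ and 118 to 231 CPM in LEPR-. The stromal median ran from -0.47 without mouse 8 to -0.02 without mouse 5. Of 9 endothelial markers 6 were higher (median 0.11, from -0.04 without mouse 6 to 0.33 without mouse 8). Of 5 tested neutrophil markers 4 were lower. The sum over all 22 listed neutrophil markers was higher in LEPR+ in 7 of 7 mice (medians 861 and 734 CPM). Most of that sum was Prtn3 (means 781 and 598 CPM), already described above for its direction in 7 of 7 mice.

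**Figure D5:**
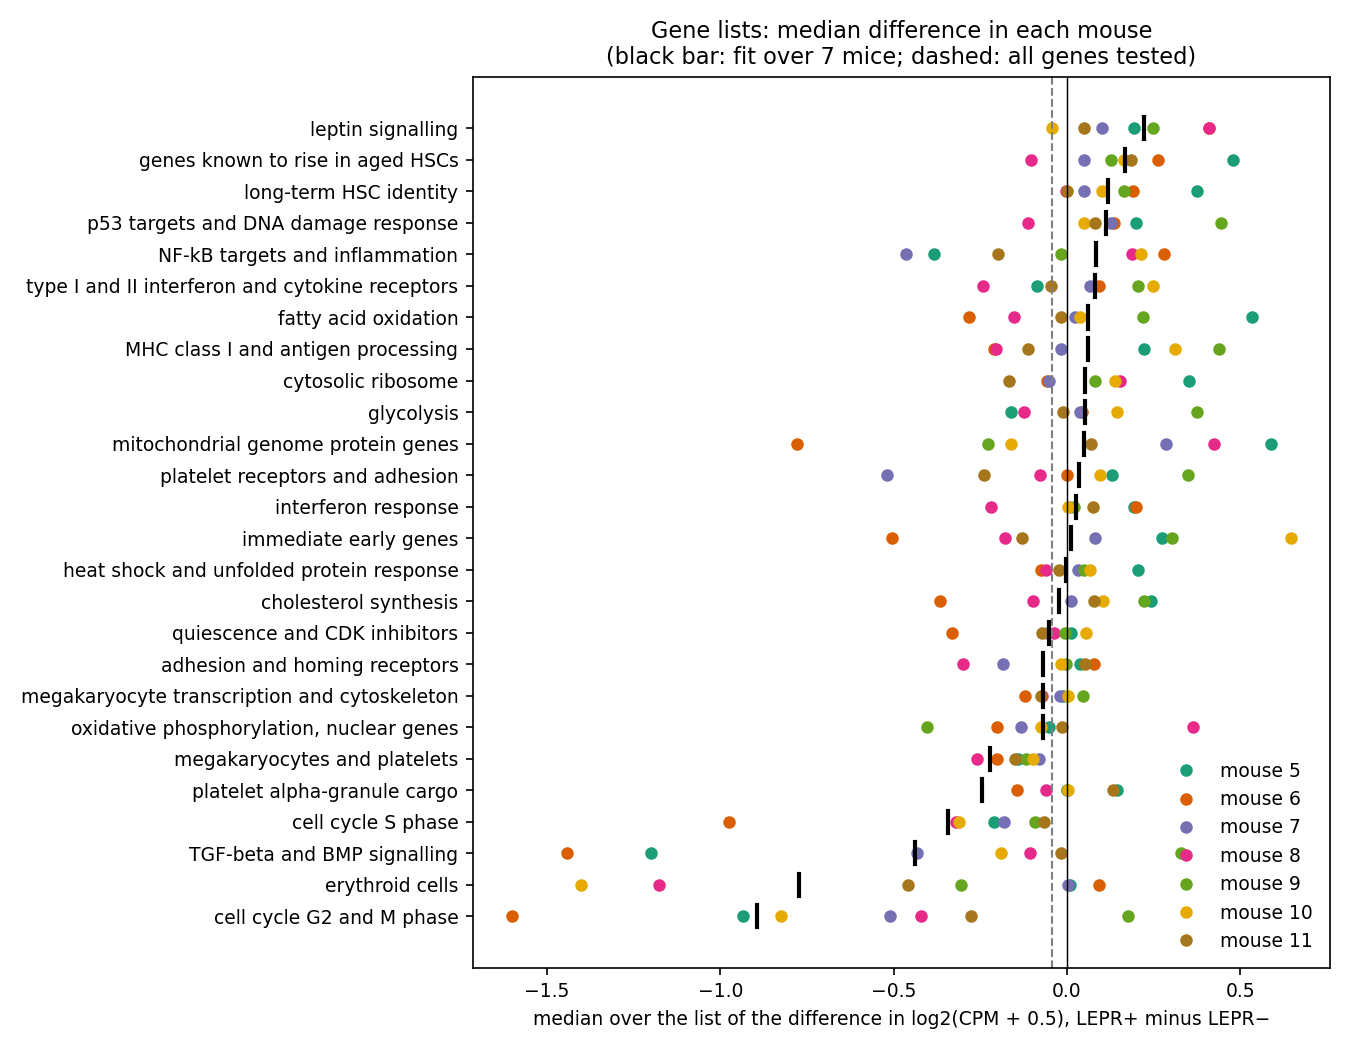
Median difference in log2(CPM + 0.5), LEPR+ minus LEPR-, over the genes of each list in each of the 7 mice (points), with the median of the fit over 7 mice (black bar) and that of all tested genes (dashed line). The S-phase medians lie below 0 in all 7 mice (-0.97 in mouse 6 to -0.07 in mouse 11), and those of the G2/M list in all but mouse 9 (0.18).

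The same contrast in young mice was set beside the middle-aged one. The fit over all 22 libraries tested 17366 genes, and for 7 (0.0403%) the LEPR+ to LEPR- difference itself differed between the ages by edgeR at an adjusted p under 0.05. All 7 were at or near 0 in the young LEPR- libraries and present in both middle-aged fractions, and none was among the genes described above. Pf4 was also lower in LEPR+ in 4 of 4 young mice (mean 194 ± 92.1 CPM, with 486 ± 308 CPM in LEPR-), where the log2 fold change of -1.23 (SE 0.227) had an adjusted p of 0.0667. Its difference between the ages, -0.24 (SE 0.282, adjusted p = 0.927), did not pass the test. Krt18 lay lower in LEPR+ in 4 of 4 young mice (219 ± 64.7 against 282 ± 102.5 CPM), opposite to the 7 middle-aged mice, and the difference between the ages was 0.82 on the log2 scale (SE 0.168, adjusted p = 0.157 by edgeR, adjusted p = 0.00302 by DESeq2).

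For the lists, the young values were set beside the middle-aged ones from the same fit, without a test of the difference. The S-phase median was -0.12 in young mice with 21 of 36 genes lower, and the G2/M median was 0.33 with 15 of 36 lower, while the median of all tested genes was 0.05. The long-term HSC identity list had a median of 0.23 in young mice, with 17 of 43 lower. The direction of the G2/M list was thus opposite to that of middle-aged mice, and that of the identity list was the same. The young libraries had drop-out shares of 3.02% to 12.5%, computed over 8516 genes, against 0% to 4.91% in the middle-aged libraries, and the list values were not recomputed with drop-out in the fit.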

How the data were processed

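RNA of sorted LEPR+ and LEPR- HSCs was sequenced, 1 library per fraction and mouse. The authors deposited raw counts of reads per Ensembl gene for each library; the submitters' processing notes name FastQC, cutadapt, STAR, HTSeq and DESeq2 and the build GRCm39 (mm39), without versions or the strand setting, so reads of overlapping genes may be shared. No molecular identifiers are mentioned. Of the records, 29.1% to 40.3% were summary lines that name no gene and were left out. Of 55416 identifiers 54749 were named from GENCODE vM39; the others held 0.0454% of counts. Genes were kept by filterByExpr (minimum count 10, minimum total 15) and tested in R 4.3.3 with edgeR 4.0.16 (TMM scaling, quasi-likelihood test, mouse as block, Benjamini-Hochberg over all tested genes, threshold 0.05) on the 14 middle-aged libraries. A difference between ages was tested in all 22. DESeq2 1.42.0 and limma 3.58.1 (voom), other scalings and filters, a fit without the block, the drop-out share as a covariate and each mouse left out were alternatives; leaving out mice 5 and 6 together was chosen after seeing the data.

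The pairing comes from the labels, which give both libraries of a number to 1 mouse. As a check, the deviations of both libraries of a mouse from their group means correlated at 0.152, 0.374, 0.146, 0.138, 0.0368, 0.540 and 0.704 in mice 5 to 11, against a median of -0.01 between libraries of different mice. The mice are separate animals. Per-mouse differences used log2(CPM + 0.5). A count of 0 was taken to allow up to 3 counts, which covers counting error only.

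Genes were named by rule: the genes of the sort gate, the 10 higher and the 10 lower genes with the smallest p among those with a mean of at least 5 CPM and 1 direction in 7 of 7 mice, and the 3 genes with the smallest p of each list at that level. Exceptions are said in the text. Of the genes this rule names, 2 are not reported here. The comparison, its members and the gene lists were chosen with earlier results of these data known. The main edgeR fit of the middle-aged libraries was tested on simulated counts with large known changes. The other fits were not tested in this way.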

Additional observations from a re-analysis of the deposited data

Results flagged for a closer look

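In mouse 6, Qrich1 differed by -2.24 (log2, LEPR+ minus LEPR-), far from the other 6 mice. The same mouse had the drop-out shares that stood apart, 6.45% in its LEPR+ library and 2.32% in its LEPR- library. Of 30 groups checked 3 held a sample this far from the rest. No chance rate is given for this count. Qrich1 was picked for its small p and the same direction in every mouse, and drop-out shares are bounded and skewed.

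For 7 genes the LEPR+ to LEPR- difference differed between middle-aged and young mice by edgeR's interaction test with Benjamini-Hochberg adjustment. The fitted difference (middle-aged minus young, log2) was -11.21 for D3Ertd751e, which overlaps Sclt1, and -8.42 for Pggt1b, both with an adjusted p of 0.00993. It was -9.06 for Plcb2, -9.63 for Tmem214 and -9.68 for Srebf1 (adjusted p = 0.0215), and -10.42 for Nrg4 and -7.47 for Stxbp4 (adjusted p = 0.0447). These sizes depend on the prior count, since the young LEPR- means of these genes were 0 to 0.885 CPM, against 8.98 to 56.5 CPM in young LEPR+. D3Ertd751e had 30.99 and 23.6 CPM in middle-aged LEPR+ and LEPR-, and Nrg4 had 34.4 and 31.2 CPM, so the middle-aged fractions did not differ in the way the young ones did. The young LEPR- libraries had drop-out shares of 3.82% to 12.5%, the highest of the 4 groups. With the drop-out share of each library in the fit, 6 genes were called, 1 higher and 5 lower, and of the 7 above D3Ertd751e and Tmem214 still passed while the other 5 did not. The median over all tested genes moved from -0.22 to 0.14 in that fit.

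A further 3 genes named in the report moved one way in all 7 middle-aged mice and the other way in all 4 young mice. Only the 10 higher and 10 lower genes picked for 1 direction in 7 of 7 mice were checked, and the share over all genes was not computed. Among those picked, Pf4, Dtymk, H1f5, Zdhhc6, Msn and Prtn3 moved the same way in all 4 young mice. For the 3 that moved the other way, the difference between the ages was 0.82 for Krt18 (adjusted p = 0.157), -2.41 for Slc7a6 (adjusted p = 0.711) and -2.06 for Qrich1 (adjusted p = 0.333), so none passed the edgeR test.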

How the results depend on the processing

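The count of 0 called genes held under every alternative except 2: DESeq2 called 12, and edgeR on all 22 libraries with the replicate block called 1, Pf4. With 1 replicate left out at a time it was 0 each time (0 to 0). Without the replicate block no gene was called either, and 104 rather than 200 genes had an unadjusted p under 0.05, against 800 by DESeq2 and 427 by limma-voom. The block changed no other call among the genes named for middle-aged mice. For these genes, 1670 gene-and-setting results kept their direction and side of the threshold, 8 passed it anew (Pf4 in 2 settings; Glul, Exo1, H2-DMb2, Troap, Sh2b2 and Gm38910 with DESeq2) and 2 reversed, both for Slamf1, which ran from -0.14 without replicate 1 to 0.19 without replicate 4 and was -0.054 with mice 5 and 6 left out.

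The count of 7 genes whose difference differed between the ages was 1518 with DESeq2, 43 with limma-voom and 41 without the replicate block. It ran from 2 to 47 when 1 mouse was left out, 47 without young mouse 1 and 2 without any one of mice 7, 8, 9, 10 and 11. The median of the alpha-granule list, -0.25, ran up to 0.01 under other settings. Precision was limited by the spread between mice for genes under 50 CPM.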

Other observations

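Of the 12 genes called by DESeq2, 10 besides Pf4 and Glul were sparse, with means of 2.60 to 16.7 CPM over the 14 libraries, and all 10 were lower in LEPR+. Each of the 10 was at 0 in at least 1 LEPR+ library, while 1 of them, Gm38910, was at 0 in a LEPR- library. They were named after their values were seen. The highest in level was Exo1, an exonuclease of mismatch repair and recombination, at 8.90 CPM on average in LEPR+ and 24.5 CPM in LEPR-, lower in 7 of 7 mice (unadjusted p = 0.0236 by edgeR, adjusted p = 0.0408 by DESeq2). H2-DMb2, a chaperone subunit of MHC class II loading, was lower in 7 of 7 mice (1.48 against 8.38 CPM), in contrast to Cd74, which was higher in 6 of 7. Troap, a spindle protein, averaged 0.747 and 7.25 CPM, and Sh2b2, an adaptor of JAK2 signalling, 0.255 and 4.95 CPM.

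Of the inflammation and T cell lists the chemokine gene Ccl5 averaged 0.342 ± 0.411 CPM in LEPR+ and 3.37 ± 1.87 CPM in LEPR-, lower in 6 of 7 mice (edgeR unadjusted p = 0.0413, adjusted p = 1). Id3, a target of BMP signalling, was at 0 in 4 LEPR+ libraries and 1 LEPR- library (0.490 ± 0.916 against 3.21 ± 2.63 CPM, unadjusted p = 0.0324, adjusted p = 1). Among genes of the aged HSC list, Ghr, the growth hormone receptor, averaged 79.2 ± 29.5 and 50.2 ± 24.3 CPM and was higher in 6 of 7 mice (unadjusted p = 0.0476, adjusted p = 1). These genes too were chosen after their values were seen.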
